A study of Homo sapiens with 4 samples.

Results

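Collagens, laminins and integrins form the fibres of the extracellular matrix, the sheets of the basement membrane and the receptors that tie cells to both. The regions described here are those that the authors' deposited table names with a gene whose symbol is COL, a number, A and a number, begins with LAMA, LAMB or LAMC and a digit, or begins with ITGA or ITGB. The integrin-binding proteins ITGB1BP1, ITGB1BP2 and ITGB3BP were left out by this rule, and ITGBL1, a secreted beta-like protein that is not a receptor chain, meets it. The rule found 752 of 91107 distinct regions and 77 of 17301 genes in the authors' deposited table, with 369 regions at 39 collagen genes, 125 at 12 laminin genes and 258 at 26 integrin genes. COL10A1, COL20A1, COL6A5, COL6A6, COL9A1 and ITGAM were not analysed here.

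The mark measured was H3K27ac, acetylation of histone H3 at active promoters and enhancers, by ChIP-seq, in which chromatin carrying it is pulled down and sequenced, in the human melanoma cell line A375. One group of 2 libraries came from cells that received 1 mM octanoate, a fatty acid of medium chain length, for 48 hours, and the other 2 from cells that received isopropanol, its vehicle, for the same time. The labels name 1 cell line and do not say whether the libraries of a group came from separate cultures, so the spread behind a p-value may be technical. The authors' deposited table gives a mean level over libraries, a log2 fold change, its standard error (SE) and p-values for every region but none for a single library, so no value by sample can be shown and the depth of each library is unknown.

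The table does not name the numerator of the fold change, and directions are therefore given as positive or negative. Coordinates are those of the table, and the submitters' processing notes name the build hg38. A region is called when the authors' deposited table, from a DESeq2 fit across all regions, gives it an adjusted p-value under 0.05, and tested when such a value was computed. Across all 36436 tested regions of the authors' deposited table the median log2 fold change was 0.32, a ratio of 1.25, and 87.3% were positive. A change relative to the others is given as the difference from this common median. Whether the common shift is one of scaling or of acetylation cannot be told apart without values per library.

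Marks at the starts of cell type genes were checked against the label. In the authors' deposited table, a tested region lay over the start of 7 of 10 melanoma and melanocyte markers, among them SOX10 and CSPG4, but of none of MLANA, TYR and DCT. The counts were 0 of 4 for leukocyte, 0 of 3 for endothelial, 3 of 4 for fibroblast (PDGFRB, LUM and DCN) and 3 of 4 for epithelial markers (EPCAM, KRT18 and KRT8) in the authors' deposited table. KRT18 and KRT8 had the same mean level, 261, and the same level per kb, 31.5, so both appear to rest on a shared region. The part of all these marks in the results below was not tested.

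Collagens are trimers of helical chains. Fibrillar collagens build the cables of dermis, bone and cartilage, collagen IV the mesh of the basement membrane, and collagen VI beaded filaments around cells. Laminins join 1 alpha, 1 beta and 1 gamma chain into a cross that binds cells to that mesh. Integrins pair 1 alpha with 1 beta chain, and the alpha chain largely sets the ligand: collagen, laminin or proteins with an RGD motif. In melanoma, integrins and the matrix they bind are known for their part in adhesion, migration and invasion.

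The upstream sequences of 4 starts with H3K27ac over them are shown: the collagen receptors ITGA2 and ITGA1, the start shared by COL4A1 and COL4A2, and LAMC1. Of these starts only that of ITGA2 lay in a region called below, and the called start of LAMA4 is not shown. The sequences are from RefSeq (GRCh38.p14), 5′ to 3′, and end at the base before the start. Capitals mark matches on either strand to the SP1 motif GGGCGG or the NFY motif CCAAT. The ITGA2 sequence (chr5:52989102-52989351, plus strand) has a GC content of 76.4% and 4 matches to GGGCGG.
ITGA2: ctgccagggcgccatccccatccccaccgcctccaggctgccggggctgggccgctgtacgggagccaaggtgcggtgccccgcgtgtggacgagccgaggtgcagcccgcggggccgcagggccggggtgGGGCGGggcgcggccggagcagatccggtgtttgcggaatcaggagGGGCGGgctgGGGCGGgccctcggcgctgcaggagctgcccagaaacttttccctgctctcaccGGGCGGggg
The ITGA1 sequence (chr5:52787666-52787915, plus strand) has a GC content of 62.0% and none of the motifs searched.
ITGA1: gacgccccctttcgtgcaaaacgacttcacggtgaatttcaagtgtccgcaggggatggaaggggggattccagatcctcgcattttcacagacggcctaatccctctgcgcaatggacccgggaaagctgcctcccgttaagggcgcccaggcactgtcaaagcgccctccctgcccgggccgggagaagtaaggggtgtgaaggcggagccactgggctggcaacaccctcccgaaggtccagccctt
COL4A1 and COL4A2 are read in opposite directions from starts that leave 126 bases between them (chr13:110307158-110307283, shown on the plus strand, which is that of COL4A2). This stretch has a GC content of 80.2%, with 1 match to GGGCGG and 1 to CCAAT.
COL4A1-COL4A2: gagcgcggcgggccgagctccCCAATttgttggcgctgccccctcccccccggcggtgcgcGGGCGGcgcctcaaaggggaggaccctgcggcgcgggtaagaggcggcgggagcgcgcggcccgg
LAMC1 (chr1:183023170-183023419, plus strand) has a GC content of 79.6% and 3 matches to GGGCGG.
LAMC1: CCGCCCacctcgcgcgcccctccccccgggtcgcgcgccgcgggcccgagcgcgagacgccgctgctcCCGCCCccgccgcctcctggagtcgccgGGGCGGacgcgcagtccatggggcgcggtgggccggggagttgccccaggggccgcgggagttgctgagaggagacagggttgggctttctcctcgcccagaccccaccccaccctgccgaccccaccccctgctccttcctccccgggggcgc

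Promoter windows of 300 bases, from 250 before to 50 after the start, were found in RefSeq for 55 of the 77 genes. GGGCGG, on either strand, was present in 31 of them (56.4%) and in 44.6% of all 27305 windows, 1 for each symbol. CCAAT was present in 13 (23.6%, against 35.7% of all) and AGGTCA, a motif of PPAR receptors, in 2 (3.64%, against 13.9%). The AP-1 motif TGANTCA was present in 2 windows (3.64%, against 7.76%), the TEAD motif GGAATG in 5 (9.09%, against 3836 of all 27305) and the SOX motif ACAAAG in 6 (10.9%, against 16.0%). CACGTG or CATGTG, forms of the E-box of MITF, were present in 5 (9.09%, against 17.9%). The median GC content was 65.7% in these windows and 58.3% in all, and its part in the motif shares was not tested.

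In the authors' deposited table, 6 of the 285 tested regions at these genes (2.11%) were called, and all 6 were positive. Positive calls made up 1.65% and negative calls 0.0192% of all tested regions in the authors' deposited table, so the share called was near the background. The calls lay at ITGA2 (2 regions), ITGA1, COL6A3, COL4A2 and LAMA4. In the authors' deposited table, 56 regions at these genes (19.6%, against 17.9% of all tested regions) were positive with an unadjusted p-value under 0.05, and 3 (1.05%, against 0.475%) were negative. None of the 6 calls passed once the common median was subtracted (0.124% of all tested regions did).

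For the 285 regions the authors' deposited table gave a median log2 fold change of 0.30, or -0.025 from the common median, and 77.9% were positive. Integrins lay highest, at a median of 0.36 with 82 of 99 tested regions positive in the authors' deposited table. Laminins had 0.26 (38 of 45 positive) and collagens 0.22 (102 of 141 positive) in the authors' deposited table. From the common median these are 0.035 for integrins, -0.060 for laminins and -0.10 for collagens, so the sign of the laminin and collagen medians depends on that centring. With it, 24 regions (8.42%, against 3.13% of all tested regions) lay below the common median at an unadjusted p-value under 0.05. At the same p-value 7 (2.46%, against 2.6%) lay above. These p-values were computed from the authors' deposited table by the normal distribution. Away from starts, 23 member regions (9.39%, against 4.24% of such regions of all genes) lay below the common median at that p-value. Of those 24 regions, 15 lay at collagens, 2 at laminins and 7 at integrins.

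**Figure D1:**
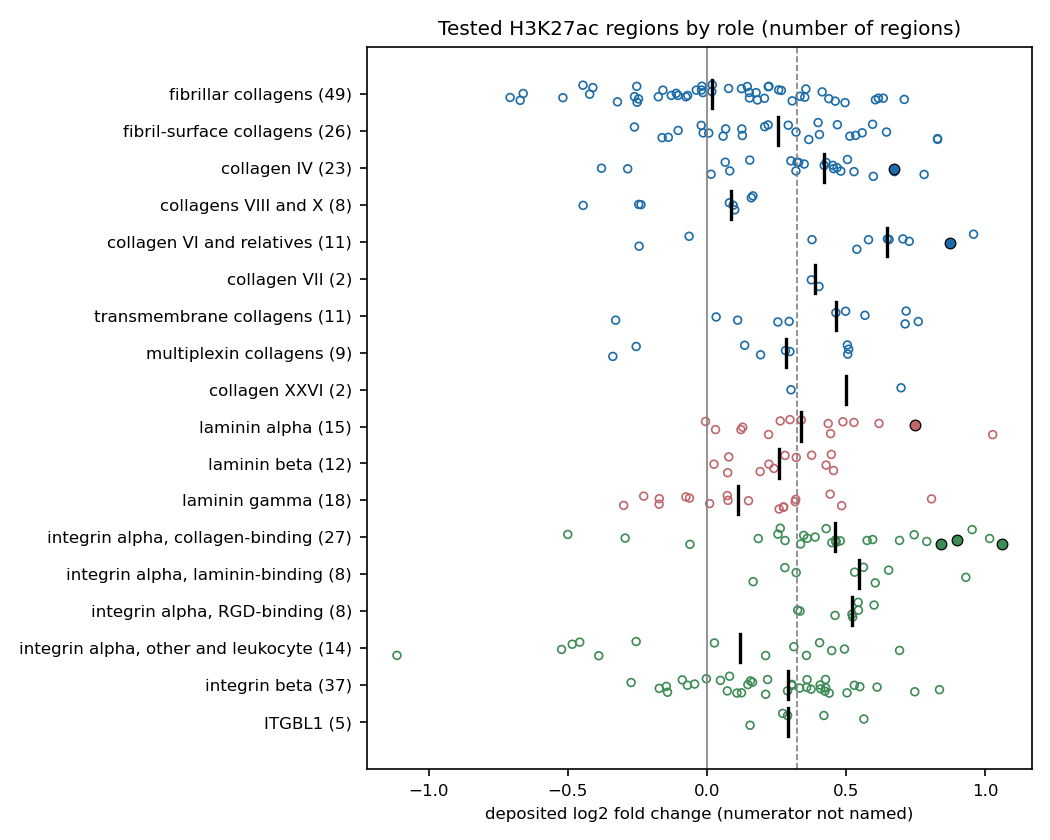
Change on the log2 scale in the authors' deposited table (horizontal axis, numerator not named) of each tested region, by the role of its gene, with the number of regions in brackets; blue is collagens, red laminins and green integrins. Filled points are the 6 calls, short black bars are medians, the solid line is 0 and the dashed line the common median of 0.32; fibrillar collagens centre near 0 and collagen VI near 0.65.

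Fibrillar collagens stood lowest among the groups of at least 20 tested regions. Their 49 tested regions, at 9 genes, had a median of 0.019 in the authors' deposited table, or -0.30 from the common median, with 26 positive and 23 negative. The median was 0.22 over the 6 regions whose mean level reached 100, and 0.18 over the 9 regions left when each gene gave its region of highest mean level, in the authors' deposited table. Most regions lay away from starts. The 44 that did had a median of 0.0014 with 22 positive, against 0.31 and 83.2% for the 26440 such regions of all genes in the authors' deposited table. With each gene left out in turn the median ran from -0.017 without COL5A2 to 0.13 without COL2A1, from the values in the authors' deposited table.

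COL2A1 encodes the chain of cartilage collagen II, whose transcription in cartilage is driven by SOX9. All 5 of its tested regions were negative in the authors' deposited table, from -0.52 to -0.069. The highest of them in mean level, 10847 bases wide and 20.7 kb upstream of the start (chromosome 12, 48025205 to 48036052), had -0.45 ± 0.22 (SE) at a mean level of 237 in the authors' deposited table. Its unadjusted p-value was 0.0428 and its adjusted p-value from DESeq2 0.258 in the authors' deposited table, so it was not called.

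COL11A1 encodes a chain of collagen XI, the partner of collagen II in cartilage fibrils. Of its 8 tested regions in the authors' deposited table, 5 were negative. Those upstream of the start, at 66.7 and 82.0 kb, had -0.66 ± 0.28 (SE) and -0.41 ± 0.25 in the authors' deposited table, and the region over the start had -0.25 ± 0.23. That region was the single tested one over the start of a member with a negative value. A region inside the gene, 226 kb from the start, had the opposite sign, with 0.71 ± 0.28 (SE) in the authors' deposited table. COL11A2, another collagen XI chain, had 2 tested regions, both positive, at 0.22 (over a start shared with RXRB) and 0.63 in the authors' deposited table.

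COL1A1 and COL1A2 encode the chains of collagen I, the main fibre of dermis and bone. In the authors' deposited table, 7 of their 11 tested regions were negative and the median was -0.020. The lowest, 45.4 kb upstream of COL1A2 (chromosome 7, 94347433 to 94349140), had -0.71 ± 0.38 (SE) at a mean level of 21.4 in the authors' deposited table (DESeq2 adjusted p-value 0.291). No tested region lay over the start of either gene. The nearest to the COL1A1 start, just inside the gene, had 0.41 ± 0.32 (SE) in the authors' deposited table. The mark over the COL1A2 start had a mean level of 2.46, below the level from which adjusted p-values stand in the authors' deposited table.

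Collagen V regulates the width of collagen I fibrils. COL5A1 had 6 of 9 tested regions positive, from -0.32 to 0.33, and COL5A2 had 7 of 9, from -0.67 to 0.61, in the authors' deposited table. The lowest COL5A2 region (chromosome 2, 189296586 to 189299083) had -0.67 ± 0.36 (SE) in the authors' deposited table (DESeq2 adjusted p-value 0.296). The widest region of any collagen, 17969 bases inside COL5A2 (chromosome 2, 189113810 to 189131779), had 0.18 ± 0.19 (SE) at a mean level of 293 in the authors' deposited table. COL27A1, which encodes a collagen of cartilage, had a median of 0.36 with 3 of 4 tested regions positive in the authors' deposited table. COL3A1 had 1 tested region, at 0.018, and COL24A1 and COL5A3 had none in the authors' deposited table.

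Collagen VI had the highest median of the groups with at least 10 tested regions. Its 3 main chains, COL6A1, COL6A2 and COL6A3, had 8 tested regions, from 0.54 to 0.96 in the authors' deposited table. All 8 were positive, as were 87.3% of all tested regions, and all lay above the common median. After centring, the 2 tested regions of COL6A3 lay above the common median at an unadjusted p-value under 0.05 from the normal distribution. COL6A1 and COL6A2 had 0 such regions, and the share among all tested regions was 2.6%. The relative COL28A1 had 3 tested regions, from -0.24 to 0.38 in the authors' deposited table. Together these gave a median of 0.65 over 11 regions in the authors' deposited table, which was 0.68 without COL28A1 and 0.54 without COL6A2.

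The called region of COL6A3 (chromosome 2, 237429650 to 237438120) lay outside the gene, 15.3 kb upstream of its start, and was 8470 bases wide. On the log2 scale the authors' deposited table gives 0.87 ± 0.23 (SE), a ratio of 1.83, at a mean level of 125 (adjusted p-value from DESeq2 0.0228). From the common median this was 0.55. A smaller neighbour 6.92 kb upstream had 0.96 ± 0.32 (SE) in the authors' deposited table and was not called (adjusted p-value 0.0881). None of the regions named with COL6A3 in the table lay over its start.

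COL6A1 and COL6A2 lie beside each other on chromosome 21. In the authors' deposited table the regions over their starts had 0.54 ± 0.28 (SE) and 0.70 ± 0.32, and the broadest region there, just upstream of COL6A1 (chromosome 21, 45972267 to 45979872), 0.65 ± 0.23 at a mean level of 158. None of the 6 tested regions at this pair was called in the authors' deposited table. There 4 (66.7%, against 17.9% of all tested regions) were positive with an unadjusted p-value under 0.05. After centring, 0 of the 6 lay above the common median at an unadjusted p-value under 0.05 from the normal distribution. The 6 regions differed among themselves by less than their standard errors, with values from 0.54 to 0.73 in the authors' deposited table.

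The collagen IV pair COL4A1 and COL4A2, the chains of nearly every basement membrane, shared 1 region over their common start (chromosome 13, 110304822 to 110311496), which covers the 126 bases printed above. It had 0.43 ± 0.23 (SE) at a mean level of 261 in the authors' deposited table (DESeq2 adjusted p-value 0.298). The pair had 42 regions in all, of which 23 were tested, with a median of 0.42 in the authors' deposited table. Of these 21 were positive (91.3%, against 87.3% of all tested regions), and the median was 0.098 from the common median. All 11 other tested regions assigned to COL4A1 were positive, from 0.015 to 0.78 in the authors' deposited table.

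The called region of the pair lay inside COL4A2, 100 kb from the start (chromosome 13, 110407708 to 110420420), and was 12712 bases wide. It had 0.67 ± 0.20 (SE) in the authors' deposited table, a ratio of 1.59, at a mean level of 333 (adjusted p-value from DESeq2 0.0428). From the common median this was 0.35. The 5 tested regions between the shared start and this one ran from 0.45 to 0.67 in the authors' deposited table. Farther along the gene the values were lower: 5 tested regions from 135 to 190 kb had 0.32, 0.082, -0.38, -0.29 and 0.066 in the authors' deposited table. The standard errors of these in the authors' deposited table lay between 0.21 and 0.33, and the difference between both stretches was not tested.

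**Figure D2:**
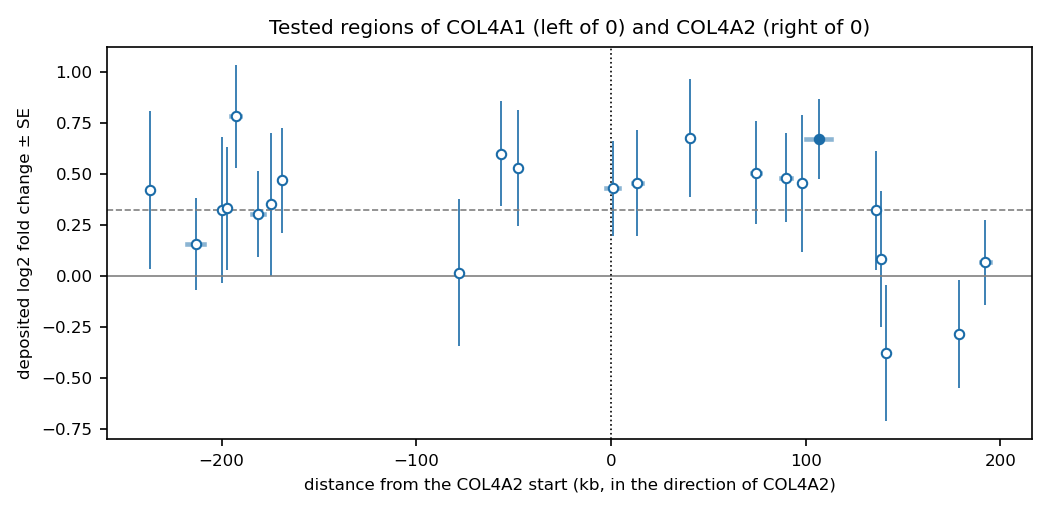
Change on the log2 scale with its SE in the authors' deposited table (vertical axis) of the 23 tested regions of COL4A1 and COL4A2 against the distance of their centres from the COL4A2 start in kb; thick horizontal bars show the width of regions and the filled point is the call. The 2 negative values lie far to the right, inside COL4A2; the dashed line is the common median of 0.32.

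The other collagen IV genes had no tested region. COL4A3 and COL4A4, which like the first pair share a start, had 1 region over it, with a mean level of 12.5 and, in the authors' deposited table, no test. Its value on the log2 scale was 0.95 ± 0.54 (SE) in the authors' deposited table. COL4A5 and COL4A6 had 7 regions between them in the table.

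Collagens on fibril surfaces had 26 tested regions at 8 genes with a median of 0.26 and 20 positive in the authors' deposited table. COL9A3, a chain of cartilage collagen IX, had the strongest mark over a start among collagens, with 56.6 per kb of region (mean level 331) and 0.40 ± 0.22 (SE) in the authors' deposited table. Membrane collagens had a median of 0.46 with 10 of 11 positive (90.9%, against 87.3% of all tested regions) in the authors' deposited table. The start of COL13A1, a collagen of cell junctions, had 0.71 ± 0.27 (SE) in the authors' deposited table and was not called. Its unadjusted p-value was 0.00859 and its adjusted p-value from DESeq2 0.145. COL17A1, a collagen of hemidesmosomes, had 3 tested regions, all inside the gene, at 0.46, 0.57 and 0.72 in the authors' deposited table.

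COL7A1 encodes the anchoring fibril of skin. Its highest region by mean level (536; chromosome 3, 48554894 to 48568417) reached from the end of COL7A1 over UCN2 to PFKFB4 and had 0.40 ± 0.27 (SE) in the authors' deposited table. The region over its own start is also named with UQCRC1, so neither belongs to COL7A1 alone. COL8A1, of a network collagen, had the most regions of any collagen gene, 29. Of these 6 were tested, none lay above the common median, and values ran from -0.45 to 0.16 in the authors' deposited table. COL18A1 and COL15A1, whose chains carry sugar side chains in basement membranes, had 9 tested regions with a median of 0.28 and 7 positive in the authors' deposited table.

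Laminin alpha chains carry the domains that integrins bind. Their 15 tested regions had a median of 0.34 with 14 positive (93.3%, against 87.3% of all tested regions) in the authors' deposited table. From the common median their median was 0.016, and 8 of the 15 lay above it. LAMA4, found in laminins of vessels and mesenchyme, had the only called laminin region, over its start (chromosome 6, 112250147 to 112256469). It had 0.75 ± 0.22 (SE) in the authors' deposited table, a ratio of 1.68, at a mean level of 147 (adjusted p-value from DESeq2 0.0486), and 0.43 from the common median. The table also names this region with RP11-506B6.7. A smaller region 34.5 kb inside the gene had 1.03 ± 0.36 (SE), and one at 20.8 kb 0.30 ± 0.37, in the authors' deposited table, neither called.

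LAMA5, the broad epithelial and vessel chain, had the widest laminin region, 17276 bases over its start (chromosome 20, 62353945 to 62371221). Its mean level was 493 and its log2 fold change 0.44 ± 0.22 (SE) in the authors' deposited table (DESeq2 adjusted p-value 0.249). LAMA3, of the laminin of skin anchorage, had 5 of 6 tested regions positive, from -0.0052 to 0.53 in the authors' deposited table. LAMA1 had 5 regions and none tested.

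Laminin beta chains were positive at all 12 tested regions, as were 87.3% of all tested regions, from 0.025 to 0.46 in the authors' deposited table, with a median of 0.26. From the common median their median was -0.063, and 8 of the 12 lay below it. The region over LAMB1, a beta chain of most tissues, had the highest mean level of any laminin region at 560 (chromosome 7, 107988879 to 108003800), with 0.22 ± 0.20 (SE) in the authors' deposited table. LAMB2 and LAMB3 had 0.43 ± 0.24 (SE) and 0.32 ± 0.21 over their starts in the authors' deposited table. The differences between these 3 starts were not tested.

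LAMC1, the gamma chain of most laminins, had the strongest mark over a laminin start by length, 41.5 per kb in the authors' deposited table (mean level 311; chromosome 1, 183020813 to 183028301). Over that start the log2 fold change was 0.28 ± 0.21 (SE) in the authors' deposited table. Inside the gene the 10 tested regions had a median of -0.069, with 6 negative and 1 above the common median, in the authors' deposited table. The lowest of them, 63.3 kb from the start, had -0.30 ± 0.21 (SE) at a mean level of 175 in the authors' deposited table. One region 32.3 kb upstream had 0.81 ± 0.30 (SE) in the authors' deposited table, and none of the 12 was called.

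**Figure D3:**
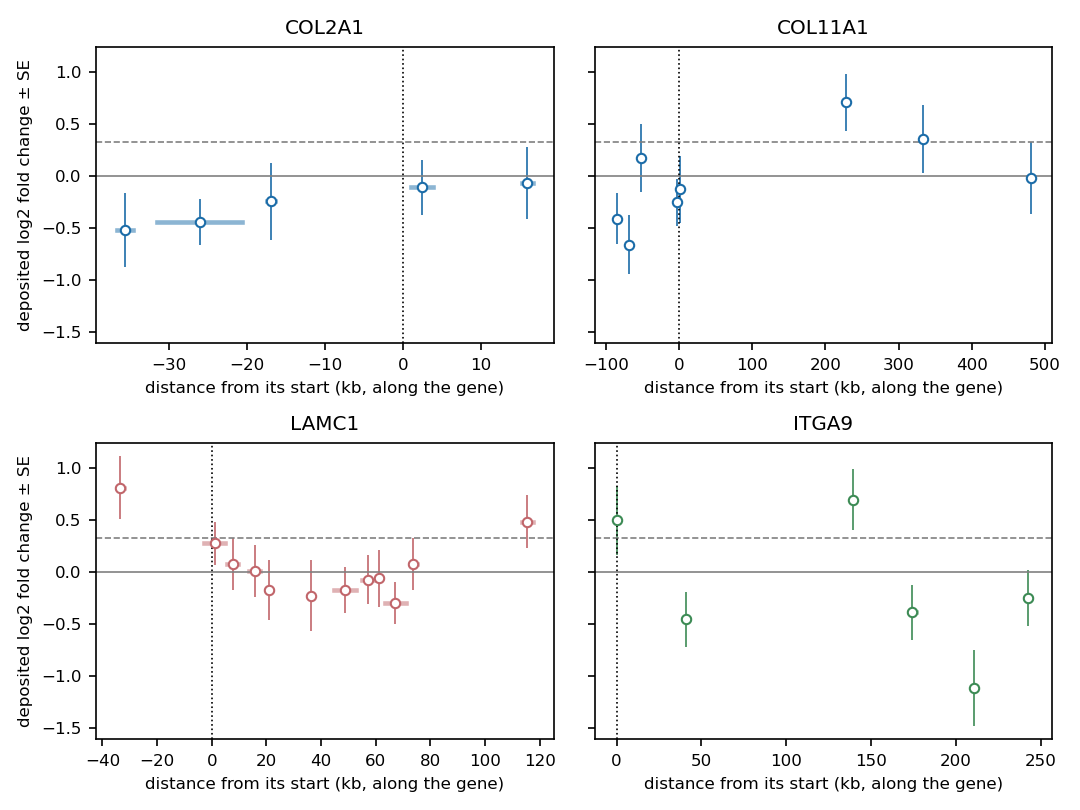
Change on the log2 scale with its SE in the authors' deposited table (vertical axes) of the tested regions of COL2A1, COL11A1, LAMC1 and ITGA9 against the distance of their centres from the gene's start in kb, with upstream to the left; thick bars show region width. None is called; all 5 COL2A1 values and 6 of 10 inside LAMC1 are below 0, and the dashed line is the common median of 0.32.

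Integrin alpha chains that bind collagen held 3 of the 6 calls, all at ITGA1 and ITGA2. These were 11.1% of the group's tested regions, against 1.65% for positive calls among all tested regions. ITGA1, ITGA2, ITGA10 and ITGA11 had 27 tested regions with a median of 0.46, of which 24 were positive and 11 (40.7%, against 17.9% of all tested regions) had an unadjusted p-value under 0.05 in the authors' deposited table. Of these 11, the neighbouring genes ITGA1 and ITGA2 held 10, ITGA10 held 1 and ITGA11 held 0. The medians of ITGA10 and ITGA11 were 0.28 and 0.41. Without ITGA1 and ITGA2, 3 of 267 tested member regions were called (1.12%, under the background of 1.65%) in the authors' deposited table.

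ITGA1 and ITGA2 lie in a row on chromosome 5 and encode the alpha chains of the main collagen receptors, each paired with ITGB1. The region over the ITGA2 start, which covers the sequence shown above (chromosome 5, 52986526 to 52993552), had 0.90 ± 0.22 (SE) in the authors' deposited table, a ratio of 1.86, at a mean level of 151 (adjusted p-value from DESeq2 0.00949). The other call, 36.3 kb inside the gene and 15915 bases wide (chromosome 5, 53025672 to 53041587), had 0.84 ± 0.18 (SE) in the authors' deposited table, a ratio of 1.79, at a mean level of 310 (adjusted p-value 0.00308). From the common median these were 0.58 and 0.52.

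Values varied along the marked stretch of ITGA2, and the differences between its regions were not tested. Between the called regions lay 4 others with 0.35, 0.75, 0.79 and 0.95 in the authors' deposited table, with standard errors of 0.35, 0.22, 0.27 and 0.30. The adjusted p-values of the last 3 were 0.0504, 0.0949 and 0.0659 in the authors' deposited table, so they were not called. Near the end of the gene, 96.7 kb from the start, a region of mean level 119 had -0.061 ± 0.22 (SE) in the authors' deposited table.

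The call of ITGA1 lay 27 kb upstream of its start, outside the gene (chromosome 5, 52755850 to 52760878). It had the largest log2 fold change of all tested member regions, 1.06 ± 0.25 (SE), a ratio of 2.09, at a mean level of 79.3 in the authors' deposited table (DESeq2 adjusted p-value 0.00651), and 0.74 from the common median. Its upstream neighbours at 42.7 and 48.5 kb had 0.69 ± 0.25 (SE) and 1.02 ± 0.37 in the authors' deposited table and were not called. The start of ITGA1, shared with PELO, a gene of ribosome rescue, lay in a region of 26504 bases with 0.46 ± 0.19 (SE) and a mean level of 495 in the authors' deposited table. A region 337 kb upstream had the lowest value of the locus, -0.50 ± 0.32 (SE), in the authors' deposited table.

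**Figure D4:**
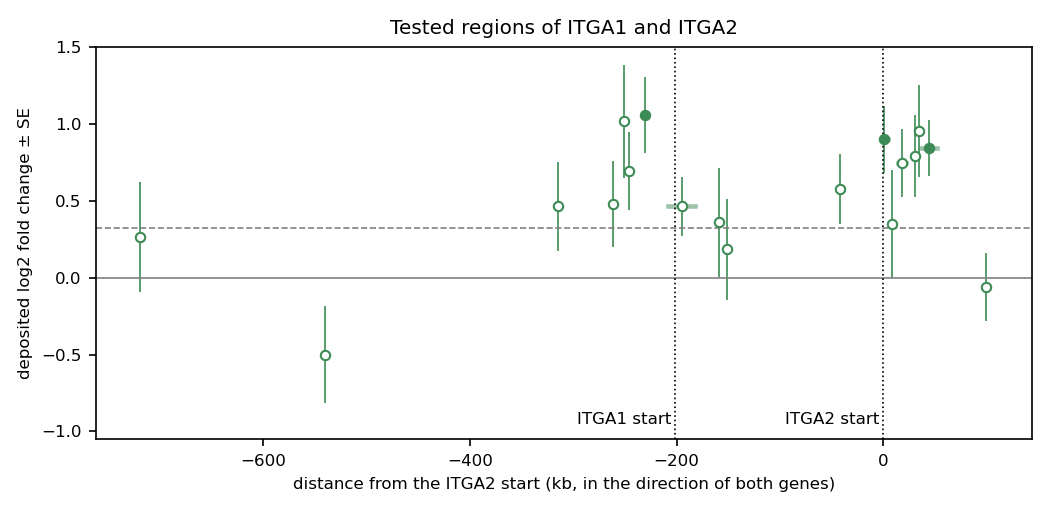
Change on the log2 scale with its SE in the authors' deposited table (vertical axis) of the 18 tested regions of ITGA1 and ITGA2 against the distance of their centres from the ITGA2 start in kb; dotted lines mark both starts, thick bars region width and filled points the 3 calls. The calls lie upstream of ITGA1, over the ITGA2 start and inside ITGA2; 16 of the 18 values are positive and the dashed line is the common median of 0.32.

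The other collagen-binding chains had no call. ITGA10 had 0.60 ± 0.22 (SE) over its start (unadjusted p-value 0.00587, DESeq2 adjusted 0.123) in the authors' deposited table. ITGA11 had 6 tested regions, all inside the gene, of which 5 were positive, from -0.29 to 0.46, in the authors' deposited table. Its start had 1.04 ± 0.44 (SE) at a mean level of 16.8, and was not tested in the authors' deposited table.

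Alpha chains that bind laminin were positive at all 8 tested regions, with a median of 0.55 and 5 unadjusted p-values under 0.05 (62.5%, against 17.9% of all tested regions) in the authors' deposited table. Of all tested regions 87.3% were positive. From the common median the group's median was 0.22, and 5 of the 8 regions lay above it. After centring, 0 of the 8 lay above the common median at an unadjusted p-value under 0.05 from the normal distribution. ITGA3 had the highest mean level of all member regions, 1046 over 26291 bases at its start (chromosome 17, 50042408 to 50068699), or 39.8 per kb, with 0.56 ± 0.21 (SE) in the authors' deposited table (DESeq2 adjusted p-value 0.139). ITGA6 had the widest member region, 32382 bases inside the gene (chromosome 2, 172433883 to 172466265), with 0.53 ± 0.21 (SE) at a mean level of 554, and 0.65 ± 0.26 over its start in the authors' deposited table. ITGA7, the muscle chain, had 1 region, at 0.93 ± 0.35 (SE) in the authors' deposited table (DESeq2 adjusted p-value 0.139). None of the 8 was called.

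Alpha chains that bind the RGD motif, ITGA5 (the fibronectin receptor), ITGAV (which pairs with several beta chains) and ITGA2B (the platelet chain), were positive at all 8 tested regions. Their values ran from 0.33 to 0.60 in the authors' deposited table, the narrowest range of the alpha chain groups, and all 8 lay above the common median. Among all tested regions the positive share was 87.3%. ITGA8, which also binds RGD, had 8 regions and none tested.

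The remaining alpha chains spread widest. ITGA9, a receptor chain for tenascin and other ligands, held the lowest value of all tested member regions, -1.11 ± 0.36 (SE) at a mean level of 23.4, inside the gene and 210 kb from its start (chromosome 3, 37661704 to 37663832) in the authors' deposited table. Its unadjusted p-value was 0.0022 and its adjusted p-value from DESeq2 0.0795 in the authors' deposited table. After subtraction of the common median the difference was -1.44 with an adjusted p-value of 0.057, recomputed from the authors' deposited table, the nearest to a call of any member region by that measure. Of the 5 tested regions inside ITGA9, 4 were negative, while one at 138 kb had 0.69 ± 0.29 (SE) and the start 0.49 ± 0.34 in the authors' deposited table. ITGA4, a chain that binds VCAM1 and fibronectin, had 0.027 ± 0.27 (SE) over its start and -0.52 ± 0.39 at 214 kb upstream (chromosome 2, 181241058 to 181243611) in the authors' deposited table.

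The leukocyte alpha chains ITGAD, ITGAE, ITGAL and ITGAX had from 1 to 5 regions each. ITGAD, ITGAE and ITGAL had 4 tested regions between them, all positive and none over a start, from 0.21 to 0.45 in the authors' deposited table. ITGAX had 2 regions, neither tested. ITGB2, which pairs with ITGAD, ITGAL and ITGAX, had 1 tested region, of 0.33 ± 0.26 (SE) inside the gene in the authors' deposited table.

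Integrin beta chains had 37 tested regions at 8 genes with a median of 0.29, of which 29 were positive and 6 (16.2%, against 17.9% of all tested regions) had an unadjusted p-value under 0.05, all positive, in the authors' deposited table. ITGB3, which pairs with ITGAV and is known to mark the vertical growth of melanoma, had a region of 16743 bases over its start (chromosome 17, 47252344 to 47269087). It had 0.41 ± 0.20 (SE) at a mean level of 627 in the authors' deposited table (DESeq2 adjusted p-value 0.26). This region is also named with RP11-290H9.2. ITGB1, the common partner of the collagen and laminin receptors, had 0.37 ± 0.22 (SE) over its start in the authors' deposited table. A region close upstream of ITGB1 had the highest beta chain value, 0.84 ± 0.35 (SE), and regions 174 and 178 kb upstream had -0.17 ± 0.31 and -0.27 ± 0.38 in the authors' deposited table. ITGB6, a chain of epithelia, had 5 tested regions, none above the common median, from -0.14 to 0.29 in the authors' deposited table.

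The mark over starts was compared per kb of region, since regions differ in width. ITGA3, ITGB8, ITGB3 and ITGB5 stood highest among integrins, at 39.8, 38.7, 37.5 and 32.9 per kb in the authors' deposited table. ITGBL1 at 16.6 and ITGB7 at 17.1 stood lowest in the authors' deposited table. Laminin starts ran from 13 (LAMA2) to 41.5 per kb (LAMC1), and collagen starts from 9.73 (the start of COL4A3 and COL4A4) to 56.6 (COL9A3), in the authors' deposited table. The median over all regions at starts was 25.3 per kb in the authors' deposited table. No spread between libraries is at hand for these levels, so neighbours in this order cannot be separated.

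Position was compared next. In the authors' deposited table, 39 of 40 tested member regions over a start were positive (97.5%, against 98.1% of all tested regions over a start), with a median of 0.41 against 0.35. Away from starts, 183 of 245 were positive (74.7%, against 83.2%), with a median of 0.27 against 0.31 in the authors' deposited table. Of the 285 tested member regions 40 lay over a start, against 27.4% of all tested regions in the authors' deposited table. Beyond 100 kb the member median was 0.15 over 59 regions, against 0.27 for all, in the authors' deposited table. Regions of 1 gene share a neighbourhood and are not replicates, and these differences were not tested.

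**Figure D5:**
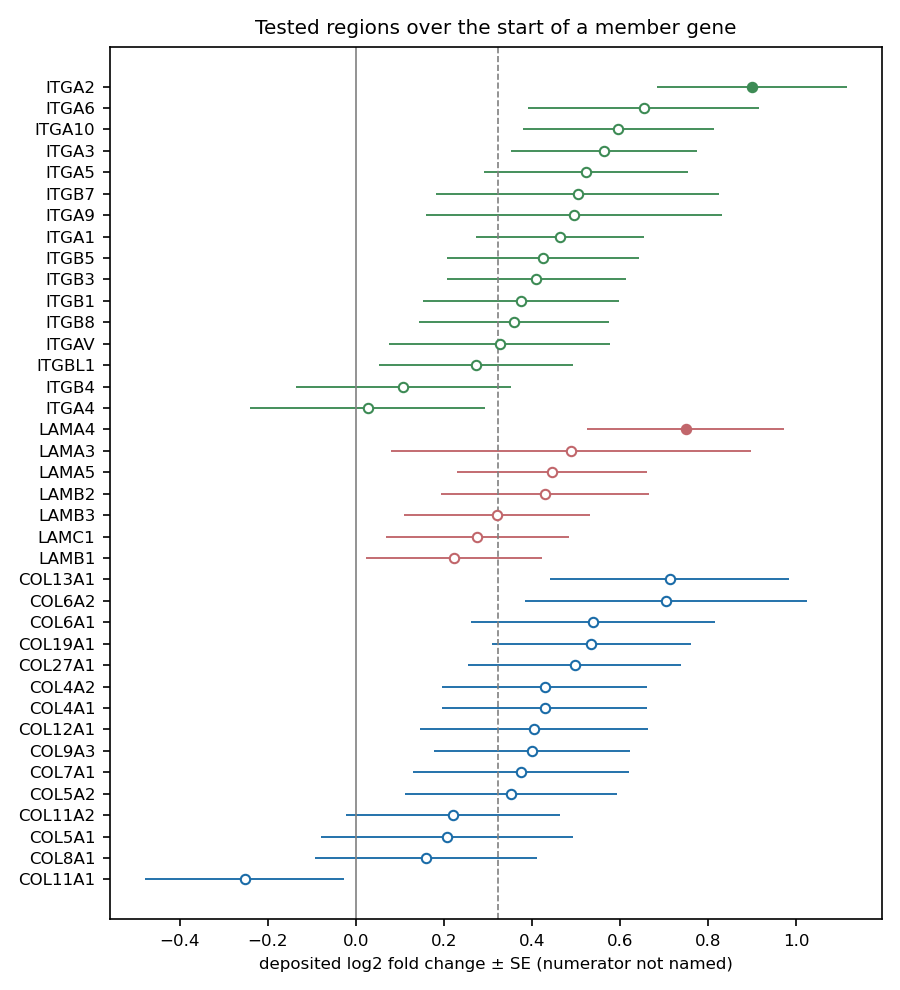
Change on the log2 scale with its SE in the authors' deposited table (horizontal axis) of tested regions over the start of a member gene, by gene; green is integrins, red laminins and blue collagens, and COL4A1 and COL4A2 show their shared region. Filled points are the calls at ITGA2 and LAMA4, COL11A1 is the only value below 0, and the dashed line is the common median of 0.32.

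Other genes of matrix assembly and adhesion were described from 4 lists. No region of any list was called by DESeq2 in the authors' deposited table. Enzymes that modify and cross-link collagen, at 16 genes such as LOX and P4HA1, had 45 tested regions with a median of 0.27, and 4 (8.89%, against 17.9% of all tested regions) were positive with an unadjusted p-value under 0.05 in the authors' deposited table. Other matrix proteins and receptors, at 21 genes such as FN1 and SPARC, had 131 with a median of 0.22 and 19 such p-values (14.5%) in the authors' deposited table. Proteases and their inhibitors, at 16 genes such as MMP2 and TIMP3, had 46 with a median of 0.38 and 9 such p-values (19.6%) in the authors' deposited table. Integrin adaptors and kinases, at 18 genes such as TLN1 and PTK2, had 54 with a median of 0.34 and 11 such p-values (20.4%), and no region of the 4 lists was negative at that p-value in the authors' deposited table.

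Cadherins and protocadherins, which join cells to each other, are another family of adhesion genes. Their 281 tested regions had a median of 0.30, with 80.1% positive (87.3% of all tested regions) in the authors' deposited table. Of them 3 were called, all positive (1.07%, against 1.65% of all tested regions). After centring, 14 (4.98%, against 3.13% of all) lay below the common median at an unadjusted p-value under 0.05 from the normal distribution. The 4 lists above had 1 (2.22%, enzymes), 9 (6.87%, other matrix proteins), 2 (4.35%, proteases) and 0 (adaptors) such regions.

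A mean level decided which member regions could be called. The 467 untested regions had mean levels of at most 18.1 in the authors' deposited table. The 11 genes with no tested region were COL24A1, COL25A1, COL4A3, COL4A4, COL4A5, COL4A6, COL5A3, ITGA8, ITGAX, LAMA1 and LAMC3. Of the 66 others, 38 had only positive tested regions, 2 only negative ones (COL2A1 and COL14A1) and 26 both.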

How the data were processed

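H3K27ac regions were compared between 2 octanoate and 2 vehicle libraries of A375 cells, grouped by their labels. The submitters' processing notes name Trim Galore, cutadapt, FastQC, Bowtie2, Picard, MACS2, featureCounts, DESeq2, bedtools 2.29.1 and hg38, with no role or order. The table deposited by the authors gives, per the file headers, each region's mean level (a signal over libraries), a log2 fold change and its SE, a score, a p-value and an adjusted p-value. The files hold 0 columns of single libraries, so depth per library is unknown, an input library was not analysed here, and the planned fit across libraries could not be run.

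The deposited values were checked: the score equalled fold change over SE, and the adjusted p-value equalled a Benjamini-Hochberg adjustment over 36436 regions, to rounding error (largest gaps 3.38e-14 and 1.58e-14). An adjusted p-value listed as 1 for a region of low level was read as not computed. Lines repeating a region were counted once. Centring subtracted the median of tested regions, and p-values were recomputed from the SE by the normal distribution. This step was tested on simulated data whose planted changes were larger than any seen at a tested member region. The simulation therefore does not show how well changes of the size seen here are found. Gene spans, strands and promoters came from RefSeq GRCh38.p14, where all 77 symbols matched; a gene named beside a region is the authors' assignment and shows no regulation. Exons and introns were not analysed here. Python 3.11.15, pandas 2.3.3, numpy 2.4.6, scipy 1.17.1 and matplotlib 3.10.9 were used.

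Regions named by rule were all calls, the 5 largest and 5 smallest fold changes, the 3 highest levels and the widest in each family, regions shared by 2 members, the gene with most regions in each family, and regions over starts of laminin and integrin chains. Other named regions were chosen after their values were seen. The members and lists were chosen with earlier results of these data known. Alternatives were the threshold, the regions adjusted over, position and level filters, centring, 1 region per gene and leaving out collagens or ITGA1 and ITGA2. One member gene is not reported here.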

Additional observations from a re-analysis of the deposited data

How the results depend on the processing

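The 6 calls became 3 at an adjusted p-value under 0.01, 3 with the adjustment over all distinct regions (COL4A2, LAMA4 and COL6A3 were lost), 3 without ITGA1 and ITGA2, and 0 after centring on the common median, where 7 regions lay above and 24 below it at an unadjusted p-value under 0.05. The median log2 fold change of 0.30 became 0.25 over all regions, 0.25 as a mean and -0.025 after centring. The positive share of 77.9% became 69.1% over all regions, 88.9% at mean levels of at least 100, 83.3% without collagens, and 45.3% above the common median after centring. The fibrillar collagen median of 0.019 became 0.22 at mean levels of at least 100 (6 regions), 0.18 with the region of highest mean level of each gene (9 regions) and -0.30 after centring. The cause of these shifts was not tested, apart from the subtraction that centring makes. Leaving out ITGA1 and ITGA2, centring the medians and shares, and the alternatives for the fibrillar and collagen VI medians were chosen after seeing the data. No paired analysis was possible because the authors' deposited table holds no value per library, and leaving out each library was not run for the same reason. Without depth per library, a region that was not called cannot be taken as unchanged.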
